A study of Schizosaccharomyces pombe with 6 samples.

Results

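The cytosolic ribosome of fission yeast (*Schizosaccharomyces pombe*) is built from ribosomal proteins that are mostly encoded by 2 or 3 gene copies each. These genes carry the symbols rpl for the large subunit, rps for the small subunit and rpp for the acidic stalk. Members were all probe sets of the array whose platform annotation names a single *S. pombe* gene with such a symbol followed by a number. The rule gave 121 probe sets for 119 genes, among 2917 probe sets for 2899 *S. pombe* genes. They comprised 67 large subunit genes, 45 small subunit genes and 7 stalk genes. For the 2 genes with 2 probe sets, rpl3702 and rps3002, the probe set with the higher mean was used. A further 7 probe sets annotated to several ribosomal protein genes were not members.

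Affymetrix arrays were hybridized with total RNA from 3 wild-type samples and 3 samples of an isp7 null strain, 1 array per sample. Cells of both strains came from mid-log cultures at 30 °C in Edinburgh minimal medium with 5 g/L ammonium chloride. Other alleles, the mating type and the way isp7 was removed are not given in the sources used here. Isp7 belongs to the 2-oxoglutarate- and iron-dependent dioxygenases, and the study concerned its part in TOR signalling and the uptake of amino acids. The values are log2 signals per probe set, made by the authors with RMA (background correction, quantile normalization and summary of the probes). In the isp7 null arrays the isp7 probe set stood at 6.02, 6.38 and 6.18, below the background of 7.08, against 11.70, 11.63 and 11.55 in wild type, a change of -5.43 (SE 0.089, limma adjusted p = 8.75e-08). The background is percentile 95 of the *Saccharomyces cerevisiae* probe sets on the same arrays. Over the members, Pearson's r was 0.992 to 0.999 between arrays of 1 group and 0.971 to 0.987 between arrays of different groups. The labels do not say whether the 3 samples of a strain were separate cultures. All p-values therefore refer to the spread between these samples, which may be technical.

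Ribosomal protein genes are among the most strongly transcribed genes of growing yeast, and their transcription follows nutrient supply through the kinase complex TORC1. In fission yeast their promoters share a HomolD box, which serves in place of a TATA box. Ribosomal protein levels must stay balanced with each other and with ribosomal RNA, and several of the proteins are known in budding yeast to limit the splicing of their own transcripts.

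Changes in the ribosomal protein genes were small, and more of the genes fell than rose. Of the 119 genes, 41 fell and 4 rose in the null strain, and 74 did not pass the test. A gene is said to rise or fall where limma, fitted and adjusted over all 2917 *S. pombe* probe sets, gave an adjusted p under 0.05. Falls made up 34.5% of the members, against 41.3% of all *S. pombe* probe sets, and rises 3.36% against 29.3%. In either direction 70.7% of all *S. pombe* probe sets passed. None of the 119 reached a change of 1.5-fold together with the adjusted p, whereas 4.22% of all *S. pombe* probe sets rose and 4.39% fell by that much. The median change of the members was -0.05 on the log2 scale, as was that of all *S. pombe* probe sets (-0.05), but the interquartile range was 0.11 for the members and 0.40 for all. The null and wild-type arrays did not overlap for 88 of the 119 genes (73.9%), against 76.1% of all probe sets. In RNA of whole cultures, fewer cells that express a gene and less of its RNA per cell cannot be told apart.

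Other scalings gave another split. When each array was centred on its median, 18 members rose and 23 fell. Both shares were then below those of all *S. pombe* probe sets with the same centring. With the change's dependence on gene length subtracted, as described further on, 117 fell and none rose, with limma's test in both cases. Replicates of the members were closer together than those of other genes. Their median SD over 3 arrays, pooled over both groups, was 0.020, against 0.048 for the other *S. pombe* probe sets. With an intensity trend in its variance prior, limma counted 66 falls and 11 rises among the members. The share of falls was then above that of all *S. pombe* probe sets under the same prior, and the share of rises below it.

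In the main fit both subunits had a lower share of falls than the 41.3% of all *S. pombe* probe sets. Of 67 large subunit genes 21 fell (31.3%) and 3 rose, with a median change of -0.04. Of 45 small subunit genes 17 fell (37.8%) and 1 rose, with a median change of -0.06. With median centring the excess of falls was nearly gone, at 11 falls and 10 rises in the large subunit and 10 falls and 8 rises in the small subunit. The small subunit count of falls was 11 without wild-type array 2 and 11 without null array 2. For each array, the median over the genes of the deviation from the gene's own mean was taken. In the large subunit this deviation was 0.009, 0.028 and 0.024 for wild-type arrays 1 to 3, against -0.012, -0.029 and -0.018 for null arrays 1 to 3. In the small subunit it was 0.009, 0.049 and 0.026 for wild type, against -0.020, -0.034 and -0.029 for the null. In both subunits every null array lay below every wild-type array. The same held for all *S. pombe* probe sets, at 0.029, 0.022 and 0.025 for wild type and -0.042, -0.016 and -0.016 for the null, so this separation is array-wide. The difference between the subunits was not tested.

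The 8 largest falls were those of rps1401, rpp203, rpl1802, rpl3002, rpl502, rps001, rpl1602 and rpl3402, and each is 1 copy of a protein with another measured copy whose estimated change was nearer to 0. The small subunit gene rps1401 encodes a protein of the platform, whose budding yeast counterpart limits the splicing of one of its own transcripts. Its values were 13.51, 13.84 and 13.63 in wild type and 13.28, 13.36 and 13.31 in the null. Wild-type array 2 was the highest, the groups did not overlap, and the change was -0.34 (SE 0.080, limma adjusted p = 0.00662), or 1.27-fold lower.

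The stalk gene rpp203 encodes a P2 protein of the flexible stalk that recruits translation factors. It read 13.94, 14.12 and 14.05 in wild type and 13.78, 13.68 and 13.71 in the null. All null arrays were below all wild-type arrays, with a change of -0.32 (SE 0.051, limma adjusted p = 0.00114). The large subunit gene rpl1802 read 14.46, 14.58 and 14.53 in wild type and 14.22, 14.21 and 14.25 in the null. Its null arrays lay close together and well below the lowest wild-type array, with a change of -0.30 (SE 0.037, limma adjusted p = 0.000302).

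The gene rpl3002 encodes a large subunit protein whose budding yeast counterpart binds and represses its own transcript. It read 14.55, 14.59 and 14.55 in wild type and 14.26, 14.30 and 14.35 in the null, a change of -0.26 (SE 0.032). The gene rpl502 encodes the protein that carries 5S ribosomal RNA into the large subunit. It read 14.65, 14.73 and 14.72 in wild type and 14.48, 14.42 and 14.43 in the null, a change of -0.26 (SE 0.033). In both genes the gap between the groups was wider than the spread within either.

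The small subunit gene rps001 read 14.65, 14.79 and 14.72 in wild type and 14.47, 14.46 and 14.48 in the null, a change of -0.25 (SE 0.039). The large subunit gene rpl1602 read 14.42, 14.63 and 14.55 in wild type and 14.32, 14.27 and 14.31 in the null, a change of -0.24 (SE 0.053). The large subunit gene rpl3402 read 14.18, 14.24 and 14.17 in wild type and 14.02, 13.97 and 13.99 in the null, a change of -0.20 (SE 0.031). In these 3 genes the null arrays lay close together and below all wild-type arrays, and the wild-type arrays of rpl1602 were the most spread, with array 1 the lowest. The 8 largest falls had limma adjusted p between 0.000293 and 0.00662. The other 33 members that fell had changes from -0.18 to -0.07. The 74 members that did not pass lay between -0.11 and 0.07.

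The 4 genes that rose were rpl4101, rpl3602, rpl3802 and rps3002, all of them short, with annotated lengths from 398 to 554 bases. The gene rpl4101 encodes L41, a very short basic peptide of the large subunit. It read 14.16, 14.24 and 14.21 in wild type and 14.63, 14.54 and 14.62 in the null. The lowest null array was above every wild-type array, and the change was 0.39 (SE 0.036, limma adjusted p = 7.59e-05), a 1.31-fold rise. It was the member with the largest change in either direction.

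The other rises were smaller. The large subunit gene rpl3602 read 15.18, 15.14 and 15.13 in wild type and 15.28, 15.25 and 15.26 in the null, a change of 0.11 (SE 0.026, limma adjusted p = 0.00693). The large subunit gene rpl3802 read 15.20, 15.14 and 15.18 in wild type and 15.30, 15.24 and 15.28 in the null, a change of 0.10 (SE 0.031, limma adjusted p = 0.0221). The small subunit gene rps3002 read 15.38, 15.36 and 15.38 in wild type and 15.49, 15.45 and 15.47 in the null, a change of 0.10 (SE 0.026, limma adjusted p = 0.0133). In all 3 genes the groups did not overlap, although the gap was narrow. The second probe set of rps3002 gave 0.10 (SE 0.026). The call of rpl3802 ended when any of 4 arrays was left out (wild-type 2, wild-type 3, null 1 and null 3), with limma adjusted p between 0.0552 and 0.0730. When adjusted over all probe sets of the array, limma called a rise only for rpl4101, with adjusted p of 0.0548 for rpl3602, 0.104 for rpl3802 and 0.0914 for rps3002. None of the 4 was called a rise with the gene length correction, where rpl4101 stood at 0.03 (limma adjusted p = 0.557) and the other three at -0.17, -0.20 and -0.21.

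**Figure D1:**
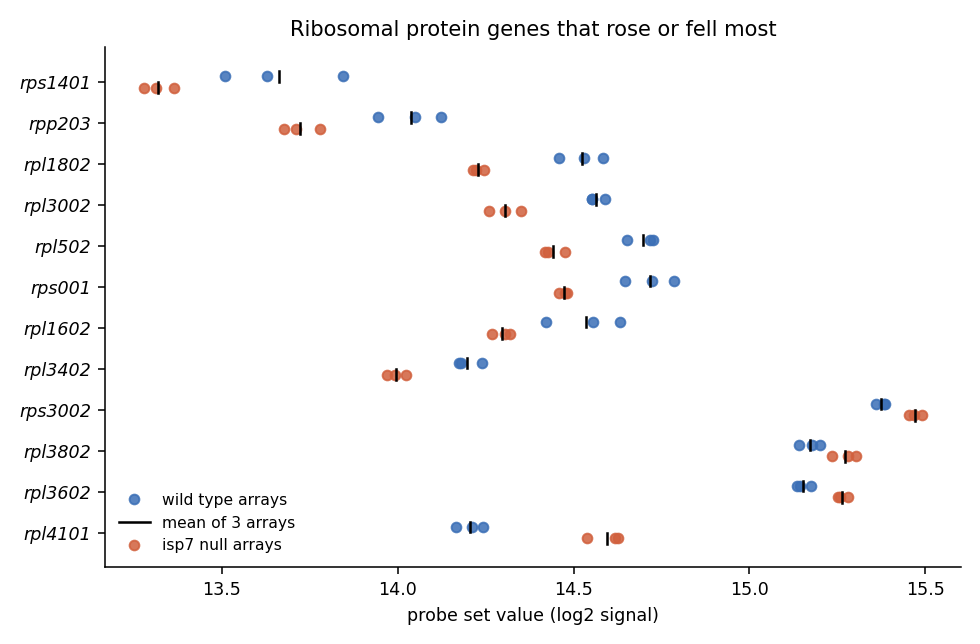
Probe set values (log2 signal, horizontal axis) in the 3 wild-type and 3 isp7 null arrays for the 8 ribosomal protein genes that fell most and the 4 that rose. Points are arrays and black ticks the mean of 3 arrays; for each gene the points of the 2 groups do not overlap, and rpl4101 shows the largest shift (0.39).

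Within the stalk, 3 of 7 genes fell (42.9%, near the 41.3% of all *S. pombe* probe sets). None rose, against 29.3% of all. The scaffold protein P0, which anchors the stalk to the ribosome, is encoded by rpp0 alone. Its probe set read 15.16, 15.20 and 15.17 in wild type and 15.12, 15.10 and 15.09 in the null, and the change was -0.07 (SE 0.026, limma adjusted p = 0.0379). That call ended when any wild-type array, null array 2 or null array 3 was left out, with limma adjusted p between 0.0519 and 0.112. It also ended with median centring (-0.03, adjusted p = 0.490), repeated quantile normalization (-0.04, adjusted p = 0.177) and adjustment over all probe sets of the array (adjusted p = 0.182). Of the P1 genes, rpp101 fell by 0.15 on the log2 scale (SE 0.026, limma adjusted p = 0.0017), while rpp102 stood at -0.07 (adjusted p = 0.119) and rpp103 at -0.11 (adjusted p = 0.0526). Of the P2 genes, rpp203 fell as described, and rpp201 (-0.05, adjusted p = 0.147) and rpp202 (0.02, adjusted p = 0.546) did not pass. The stalk's median change was -0.07.

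Ribosomal protein S6 is phosphorylated downstream of TORC1, and in fission yeast the kinase Psk1 does so. Its gene rps601 read 14.81, 14.82 and 14.81 in wild type and 14.79, 14.78 and 14.75 in the null, a change of -0.04 (SE 0.025, limma adjusted p = 0.184). Its other copy, rps602, read 14.93, 14.95 and 14.92 in wild type and 14.88, 14.84 and 14.86 in the null. That is a change of -0.07 (SE 0.026, limma adjusted p = 0.0372), with adjusted p between 0.0680 and 0.108 when any wild-type array, null array 2 or null array 3 was left out. The call of rps602 also ended with median centring (-0.025, limma adjusted p = 0.491), repeated quantile normalization (adjusted p = 0.0978) and adjustment over all probe sets (adjusted p = 0.183). For both copies every null array was below every wild-type array. The psk1 transcript rose by 0.30 (SE 0.030, limma adjusted p = 0.000105).

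Among the members, the change tended to be lower where the probe set was dimmer. The array's highest value was 15.65, and 99 of the 119 members (83.2%) had a mean within 1 log2 unit of it, against 1.97% of the other *S. pombe* probe sets. Array signals are known to compress differences near their ceiling, and the part of this in the members' changes was not tested. Brightness also depends on the probes of a probe set, so it does not compare transcript numbers between genes. The brightest members were rps2502, rps21 and rpl26, with means of 15.56, 15.53 and 15.51 and changes of 0.02, 0.04 and 0.002, none past the test. The dimmest were rpl1603, rps1401 and rpp203, with means of 13.18, 13.49 and 13.88, and all 3 fell, rpl1603 by 0.14 on the log2 scale (SE 0.035, limma adjusted p = 0.00759). Of 332 other *S. pombe* probe sets with a mean from 13 to 14, 40.7% fell and 36.7% rose. Their median change was -0.02.

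Between these ends the median change moved stepwise. For 12 members with a mean from 14 to 14.5 the median change was -0.11, with 5 falls and 1 rise. For 34 members from 14.5 to 15 it was -0.10, with 24 falls, and for 40 members from 15 to 15.25 it was -0.05, with 9 falls and 2 rises. The 30 members at 15.25 or above had a median of 0.01, with no fall and 1 rise, and a spread from -0.05 to 0.10. With the gene length correction described further on, the steps were smaller and not all upward. The medians of these classes were then -0.32, -0.30, -0.24 and -0.27, from dim to bright. Across the 119 members, which share the same 6 arrays and are no independent replicates, Spearman's rho between change and brightness was 0.721 and Pearson's r 0.580, or 0.714 without rpl4101.

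Other genes of the same brightness were set beside them. For 170 other *S. pombe* probe sets with a mean of 14 or more, rho between change and brightness was -0.027. From 14 to 14.5 the 104 others had a median change of 0.11, from 14.5 to 15 the 46 others had 0.06, and from 15 to 15.25 the 10 others had -0.015. At 15.25 or above, the 10 others had a median of 0.03, near that of the members there. Falls made up 31.7%, 26.1%, 20.0% and 0.0% of the others in these classes, from dim to bright. Among the members they made up 41.7%, 70.6%, 22.5% and 0.0%. Rises made up 51.9%, 47.8%, 30.0% and 20.0% of the others, against 8.33%, 0.0%, 5.0% and 3.33% of the members. The difference between members and others was not tested.

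**Figure D2:**
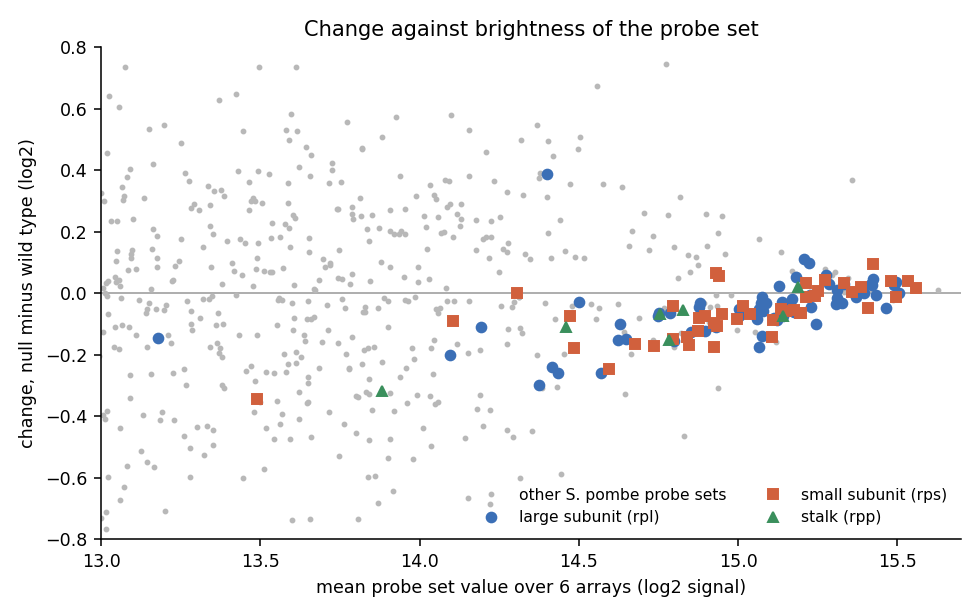
Change between isp7 null and wild type (log2, vertical axis) against the mean probe set value over 6 arrays (log2 signal, horizontal axis), for 119 ribosomal protein genes by subunit and for other S. pombe probe sets with a mean above 13, of which 9 lie outside the plotted range of change. The members converge on no change toward the array's highest value of 15.65, and the dimmer members lie mostly below 0, except rpl4101 at 0.39.

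Copies of the same protein could be compared for 44 proteins, 39 with 2 measured copies and 5 with 3, which gave 54 pairs. The remaining 26 genes had no measured copy, and of these 7 fell and 1, rps3002, rose. Of all *S. pombe* probe sets 41.3% fell and 29.3% rose. The gene rpl8 was kept apart from rpl801, rpl802 and rpl803, which encode a different protein of the large subunit. In 7 proteins every measured copy fell, in 17 only part of the copies fell, in 3 only part of the copies rose, and in 17 no copy passed. The 7 proteins were those of rpl15, rpl7, rpl801 to rpl803, rps0, rps1, rps14 and rps4. The 3 with a rise in 1 copy were those of rpl36, rpl38 and rpl41. A call in 1 copy only does not show that the copies differ, so the difference between copies within each array was compared between the groups. With 3 arrays against 3 the exact permutation test, two-sided, cannot give less than p = 0.1.

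The median size of the difference in change between copies was 0.07, and 11 of the 54 pairs differed by more than 0.1. The null and wild-type values of the within-array difference did not overlap in 32 pairs (59.3% of the 54), each with the smallest exact permutation p of 0.1. In 34 of the 54 pairs the copy with the dimmer probe set had the lower change, and so it did in 8 of 12 pairs whose probe sets were at least 0.5 apart in mean value. Copies of near-identical sequence can share probes. The probe sets used for rpl3702 and rps3002 carry the array maker's mark for possible cross-hybridization, and those of the other 117 members carry none.

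The proteins with the largest difference were P2, L41, L30, L18, L34 and L5, in that order. For P2, rpp202 minus rpp203 within an array was 1.22, 1.07 and 1.13 in wild type and 1.47, 1.49 and 1.47 in the null, a difference in change of 0.34 ± 0.045 (SE, n = 3 per group, exact permutation p = 0.1). Against rpp201, the difference in change of rpp203 was 0.26 ± 0.036 (SE). The dimmest of the 3 P2 genes was thus the one that fell, while rpp201 and rpp202 differed in change by 0.08.

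For L41 the direction was the opposite. The difference rpl4101 minus rpl4102 was -1.11, -0.99 and -1.02 in wild type and -0.75, -0.73 and -0.66 in the null, so the copies came closer by 0.33 ± 0.044 (SE, exact permutation p = 0.1). Here the dimmer copy rose, and rpl4102 itself stood at 0.06 (limma adjusted p = 0.174), with its probe set at 15.23 to 15.27 in wild type.

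For L30 the difference rpl3001 minus rpl3002 went from 0.83, 0.79 and 0.82 in wild type to 1.11, 1.06 and 1.01 in the null, a difference in change of 0.25 ± 0.030 (SE). The brighter copy rpl3001 stood between 15.36 and 15.38 on all 6 arrays. For L18 the difference in change of rpl1801 minus rpl1802 was 0.24 ± 0.046, for L34 that of rpl3401 minus rpl3402 was 0.21 ± 0.017, and for L5 that of rpl501 minus rpl502 was 0.21 ± 0.031 (SE, exact permutation p = 0.1 each). In each of these 4 proteins the 02 copy fell and the change of the 01 copy did not pass. The gene rpl3402 is annotated at 870 bases and rpl3401 at 455, and with the gene length correction the L34 difference was 0.05 and the L30 difference 0.18.

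The 3 proteins whose copies differed least were L9, L32 and S24. The difference in change was 0.006 ± 0.0097 (SE) between rpl901 and rpl902, 0.007 ± 0.0095 between rpl3201 and rpl3202, and 0.013 ± 0.0113 between rps2401 and rps2402. The within-array differences overlapped between the groups in all 3 proteins, with exact permutation p of 0.6, 0.6 and 0.4. None of these 6 genes passed limma's test, with changes from -0.05 for rpl902 to 0.03 for rps2401, and all 6 probe sets had means above 15.1. These differences moved with the processing. With the gene length correction they were -0.03 for L9, -0.05 for L32 and 0.06 for S24, and with repeated quantile normalization 0.05 for L9 and 0.03 for S24.

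**Figure D3:**
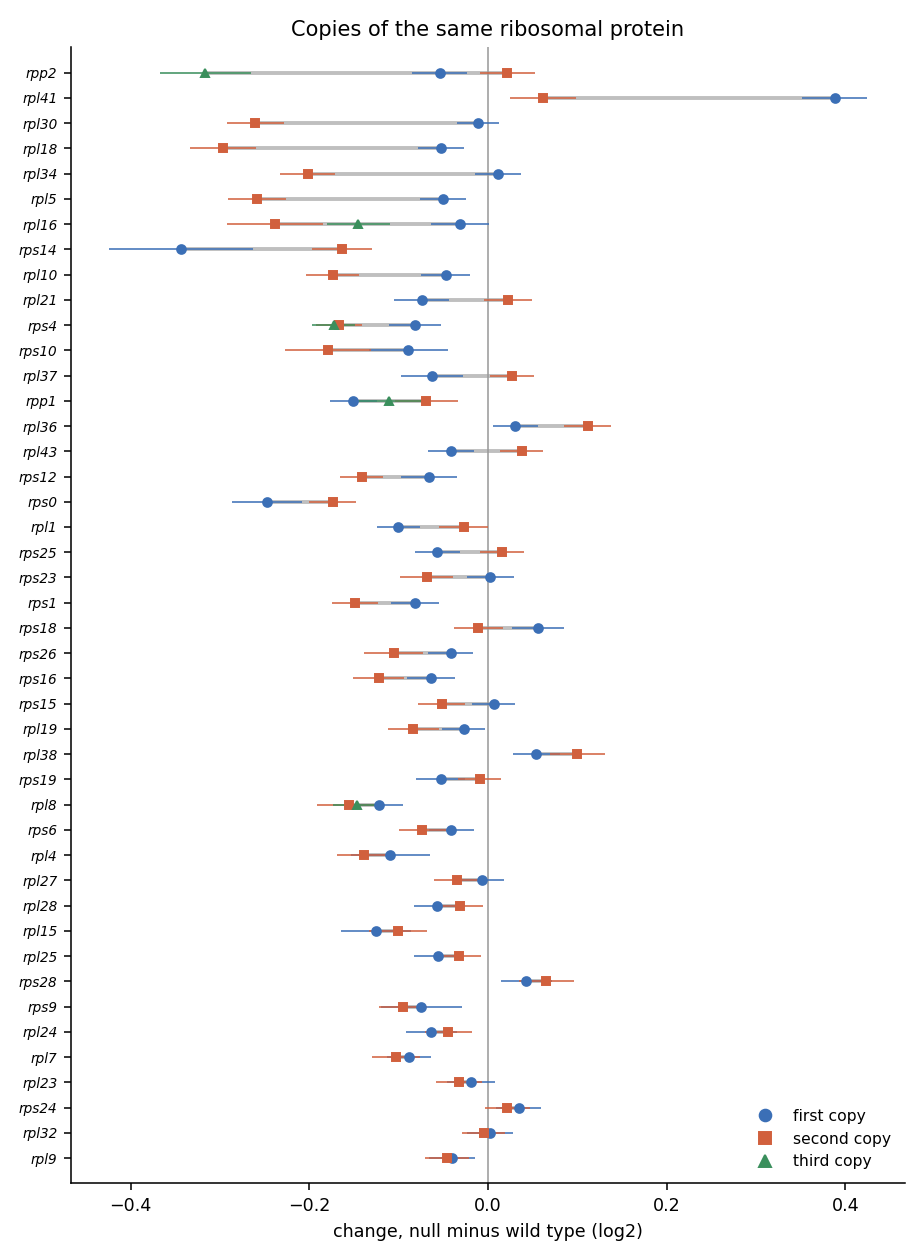
Change between isp7 null and wild type (log2, horizontal axis) of each copy of 44 ribosomal proteins, ordered by the largest difference between copies. Points are the limma estimates with SE, numbered in order of the gene symbols, and grey bars join the copies of a protein; the P2 genes and rpl41 at the top differ by 0.34 and 0.33, and the copies of most other proteins lie within 0.1 of each other.

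Ribosomal protein genes are short, and on these arrays short genes tended to be higher in the null. The length used is that of the whole gene in the RefSeq annotation. The members had a median length of 680 bases, from 285 for rpl4102 to 2698 for rpl1603, against 1944 bases for the other probe sets. Among genes from 285 to under 550.5 bases, 30 members had a median change of 0.01, while 44 other probe sets of that length had 0.19. From 550.5 to under 680 bases the medians were -0.03 for 29 members and 0.30 for 49 others. From 680 to under 861 bases they were -0.06 for 30 members and 0.27 for 106 others, and from 861 to under 1500 bases -0.10 for 29 members and 0.07 for 698 others. Restricted to others with a mean of 14 or more, the medians were 0.12, 0.31, 0.20 and 0.11 in these 4 length classes, over 6, 20, 23 and 61 probe sets. The members were thus below other genes of like length in each class, and this difference was not tested. Among the members themselves rho between change and length was -0.566. Longer members were also dimmer, with median values of 15.27, 15.17, 15.06 and 14.88 in the 4 length classes from short to long.

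When the dependence on length was fitted on the 2796 other probe sets and subtracted, the median change of the members became -0.28, and 117 of 119 fell. With that correction 39.7% of all *S. pombe* probe sets fell and 32.3% rose. The members that did not pass were rpl4101 and rpl1603, at 0.03 and -0.03. After it 2 members fell by at least 1.5-fold, rps1401 and rpp203, both at -0.61. The correction moves genes of the same length by the same amount whatever their brightness. The 30 members at 15.25 or above had a median change of 0.01 before it and -0.27 after it. The 10 other probe sets of that brightness had 0.03 before and -0.13 after, with 7 falls and 1 rise after it. In the length classes from short to long, the corrected medians of other probe sets were -0.13, 0.03, 0.07 and -0.01. Those of the members were -0.32, -0.28, -0.25 and -0.23. In the shortest class 22 of the 44 others fell and 15 rose. These differences were not tested.

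**Figure D4:**
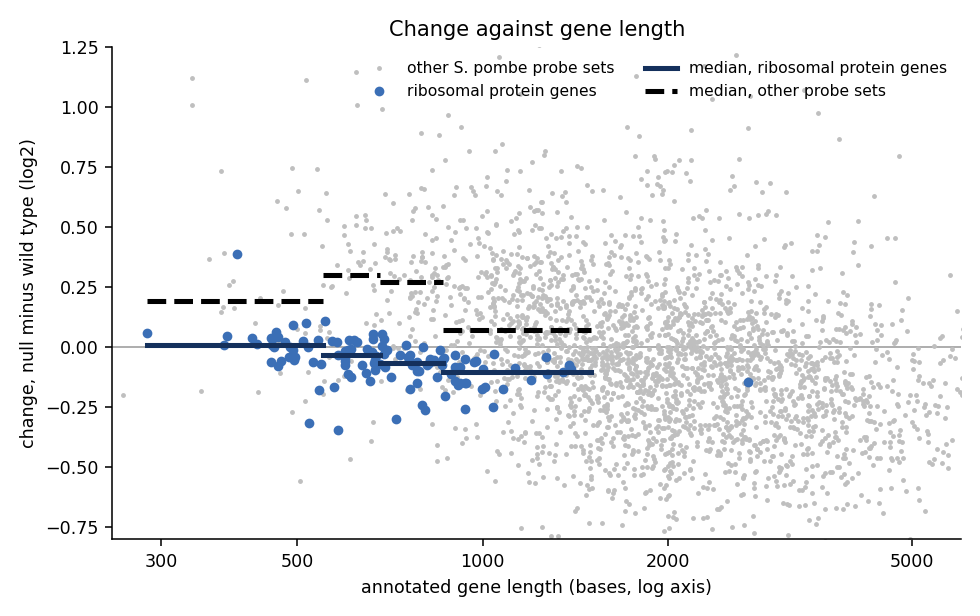
Change between isp7 null and wild type (log2, vertical axis) against annotated gene length (bases, log axis) for 119 ribosomal protein genes and other S. pombe probe sets, 113 of which lie outside the axes. Horizontal bars are medians in 4 length classes; those of the ribosomal protein genes run from 0.01 to -0.10 and lie below those of the other probe sets (0.19, 0.30, 0.27 and 0.07).

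Genes with related roles were read in the same fit. Of 4 measured ribosome components outside the symbol rule 1 fell and none rose, against 41.3% and 29.3% of all *S. pombe* probe sets. The ubiquitin fusion genes ubi1 and ubi2, which encode L40, stood at -0.04 and -0.05 and ubi3, which encodes a small subunit protein, at 0.01, none past limma's test. This ubi3 probe set held the array's highest value of 15.65, in null array 1. A second ubi3 probe set stood at 0.08 (limma adjusted p = 0.0559), with groups that did not overlap. The gene cpc2, which encodes the ribosome-bound protein RACK1, fell by 0.11 on the log2 scale (SE 0.030, limma adjusted p = 0.0113), a call that ended with median centring (-0.06, adjusted p = 0.110) and with adjustment over all probe sets (adjusted p = 0.0655).

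Assembly factors process ribosomal RNA and build the subunits in the nucleolus. Of 42 measured in the list of assembly factors, 28 fell (66.7%, against 41.3% of all *S. pombe* probe sets) and 4 rose (9.52% against 29.3%). The median change was -0.33, and 7 of the falls were 1.5-fold or more. After the gene length correction 34 fell and 3 rose, 4 of the falls reached 1.5-fold, and esf2, named next, stood at -0.40. The 3 with the lowest change were esf2 (-0.68, SE 0.035), known in budding yeast as a factor of early small subunit assembly, dbp3 (-0.85, SE 0.051), which encodes an RNA helicase, and nuc1 (-0.90, SE 0.035), which encodes the largest RNA polymerase I subunit. Of 10 measured chaperones and modifying enzymes of ribosomal proteins and nascent chains, 8 fell (80.0%) and 1, psk1, rose (10.0%). The largest falls there were those of rmt3 (-0.67, SE 0.044), a methyltransferase of Rps2, set11 (-0.49, SE 0.035), a methyltransferase of L12, and zuo1 (-0.44, SE 0.031), a chaperone at the ribosome. With the gene length correction 7 of the 10 chaperones and modifying enzymes fell and 2 rose. The difference in change between these lists and the members was not tested. The median brightness of the assembly factors was 12.8, away from the ceiling.

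Of 9 measured genes in the list of regulators 3 rose (33.3%, against 29.3% of all *S. pombe* probe sets) and 4 fell (44.4% against 41.3%), with a median change of -0.10. With the gene length correction the split turned, to 5 rises and 2 falls with a median of 0.24. The list of regulators holds rap1, which in fission yeast is a telomere protein. The gene rrn7, which encodes a factor that binds the HomolD box in fission yeast, fell by 0.31 on the log2 scale (SE 0.027, limma adjusted p = 5.46e-05). The genes sfp1 and fhl1 are named after budding yeast regulators of ribosomal protein genes. The former fell by 0.39 (SE 0.046, limma adjusted p = 0.000241), and fhl1 rose by 0.16 (SE 0.032, limma adjusted p = 0.00297). Of 5 measured elongation factor genes 3 fell (60.0%, against 41.3% of all *S. pombe* probe sets) and none rose, with a median of -0.09. Of 31 mitochondrial ribosomal protein genes 14 rose (45.2%, against 29.3% of all *S. pombe* probe sets) and 5 fell (16.1% against 41.3%). Their median change was 0.08, with a median brightness of 12.12 and a median length of 1030 bases. With the gene length correction the split turned, to 7 rises and 11 falls with a median of 0.01.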

How the data were processed

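The deposited values are log2 probe set signals, made by the authors with RMA in Partek 6.5 per the submitters' processing notes. RMA gives all arrays 1 distribution, so a change in total RNA per cell is not seen. All 6 value columns were used. Names came from the platform annotation, updated through the RefSeq gene table of assembly ASM294v3, which was used for names and gene lengths only; the array's build is not given in the sources used here. Of 10928 probe sets, 2917 matched 1 *S. pombe* gene, 2601 carry *S. cerevisiae* names, 20 have several genes and 5390 have none here. No sequence of the members was used.

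The contrast was fitted with limma 3.58.1 in R 4.3.3 (lmFit, eBayes, no trend), two-sided, with Benjamini-Hochberg adjustment over all *S. pombe* probe sets. Differences between copies were tested with an exact permutation test over arrays (scipy 1.17.1). Errors are SE of the fit unless an SD is named. Precision is limited by having 3 arrays per group. The fitting code was tested on simulated data.

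The named genes are isp7, up to 8 rises and 8 falls by size, the 6 proteins with the largest and the 3 with the smallest difference between copies, all stalk genes, the rps6 copies, the 3 brightest and 3 dimmest members, other ribosome components, fhl1, rrn7, sfp1 and psk1, and up to 3 called genes of each of the lists of assembly factors and modifiers. The members, lists and classes of brightness and length were chosen with earlier results of these data known. Listed genes without a probe set were not analysed here. Alternatives were leaving out each array, a gene length correction, the mean over a gene's probe sets, the whole array as the set tested, a background filter, median centring, repeated quantile normalization, the replicate number as a block and 3 other variance priors (intensity trend, robust, none).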

Additional observations from a re-analysis of the deposited data

How the results depend on the processing

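Among 50 named genes and 16 alternatives, 710 of the values kept their direction and their side of the adjusted p, 31 passed only under the alternative, 29 no longer passed and 30 changed sign. No alternative other than the gene length correction gave a member past 1.5-fold, and it gave 2, both falls. The number of members that rose (4) became 11 with an intensity trend, 11 without variance moderation, 7 after repeated quantile normalization, 18 when centred on the median, 1 when adjusted over all probe sets of the array and 0 after the length correction. The number that fell (41) became 66 with the trend, 23 with median centring, 25 over all probe sets and 117 after the length correction, and the rises lay between 3 and 5 and the falls between 28 and 42 when 1 array was left out. The median change of all members was -0.28 after the length correction, -0.0399 after repeated quantile normalization and -0.0047 when centred. For the large subunit it was 0.0043 and -0.27, and for the stalk -0.0258 and -0.34, with centring and the length correction. For the small subunit it was -0.0147 with centring, -0.0416 with quantile normalization, -0.28 after the length correction and between -0.0711 and -0.0473 with 1 array left out.

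After the length correction the values that changed sign were rpl3602 (-0.17), rpl3802 (-0.20), rps3002 (-0.21), rpl3401 (-0.32), rpl4102 (-0.38), rpp202 (-0.29), rpl3201 (-0.29), rps2401 (-0.19), rps2402 (-0.25), rpl26 (-0.32), rps21 (-0.29), rps2502 (-0.33) and ubi3 (-0.29). With median centring they were rpl3001 (0.0375), rpl3202 (0.0435), rpl901 (0.0080), rpl902 (0.0025), rps601 (0.0076) and ubi1 (0.0079). With quantile normalization they were rpl3401 (-0.0128), rpl3201 (-0.0208), rpl26 (-0.0208) and rps2502 (-0.0147). With 1 array left out, rpp202 lay between -0.0028 and 0.0367, rpl3201 between -0.0074 and 0.0119, rpl3202 between -0.0116 and 0.001 and rpl26 between -0.0078 and 0.0088. The length correction is itself the subtraction that moved its values. For the other settings the cause was not tested.

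The labels do not say whether same-numbered samples were handled together, and the main fit did not pair them. The correlations of deviations from the group mean between same-numbered arrays were -0.116, -0.251 and 0.108. With 3 arrays per group these values cannot settle whether the arrays were paired. With the replicate block 4 members rose and 29 fell, the small subunit count was 11, and rpp0 (adjusted p = 0.0968) and rps602 (0.0972) no longer passed limma's test. Every member lay far above the background of 7.08, the dimmest at 13.18, and 99 of the 119 lay within 1 log2 unit of the highest value.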

Other observations

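The array also carries probe sets for *S. cerevisiae*, whose ribosomal protein sequences are close to those of fission yeast. Of the *S. cerevisiae* probe sets, 22 carry a symbol of RPL, RPS or RPP followed by a number. They were chosen by symbol only, which does not ensure that each, RPP1 among them, encodes a ribosomal protein. Of these 22, 6 (27.3%) had a mean above the background of 7.08, against 4.81% of 2579 other *S. cerevisiae* probe sets. The background is itself a high percentile of the *S. cerevisiae* probe sets, so the low share of the others above it follows largely from that definition. The means of the 22 ran from 4.29 to 7.79 with a median of 5.79, near the median of 5.77 of the others. The 6 were those of RPL5, RPS12, RPS13, RPS15, RPL10 and RPP0, at 7.79, 7.67, 7.65, 7.48, 7.19 and 7.12. All 22 had changes between -0.15 and 0.18. Of the 22, 1 passed limma's test over all probe sets, against 123 of the 2579 others. It was RPS2 (limma adjusted p = 0.0228), with a mean of 5.64 below the background.

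The 7 probe sets annotated to several ribosomal protein genes had means from 14.80 to 15.48 and changes from -0.09 to 0.13, and none passed limma's test over all probe sets. The highest change, 0.13 (adjusted p = 0.0585), was that of a probe set for rps3001 and rps3002 together, and another probe set for the same pair stood at 0.09. The lowest, -0.09, was that of a probe set for rpl1101 and rpl1102, close to the change of -0.08 on the probe set of rpl1102 alone.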
